A study of Mus musculus with 6 samples.

Results

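Endothelial cells (ECs) make many of the proteins that keep blood fluid and that start, limit and dissolve clots. The genes examined here were the 9 haemostasis genes Vwf, F8, F3, Thbd, Procr, Tfpi, Pros1, Plat and Plau, chosen by name as genes that the endothelium itself expresses, apart from the clotting factors of hepatocytes. All 9 were found among the 24421 gene symbols of the count table, and all 9 were among the 14612 genes that passed the filter on low counts. ECs gated as CD31+CD45- were taken by FACS from livers of wild-type C57BL/6J mice, with 3 samples at 10 weeks of age (young) and 1 sample each at 127, 131 and 136 weeks (aged). Young samples are named by their number and aged samples by their age. The mice were female, no treatment is given for either age, and animals with visible tumors or an enlarged liver or spleen had been left out by the authors. The samples of an age are described as independent, but whether each came from 1 mouse or from several is not given in the sources used here. The sorted cells include sinusoidal as well as large-vessel ECs, so in these bulk samples fewer cells of a type and less RNA per cell cannot be told apart.

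In the first steps of haemostasis, von Willebrand factor (Vwf) tethers platelets and carries coagulation factor VIII (F8), while tissue factor (F3) starts the clotting cascade. Tissue factor pathway inhibitor (Tfpi) blocks that start, and the protein C system, in which thrombomodulin (Thbd) and the endothelial protein C receptor (Procr) activate protein C with protein S (Pros1) as its cofactor, shuts the cascade down. Tissue-type plasminogen activator (Plat) and urokinase (Plau) turn plasminogen into plasmin, which dissolves fibrin. Sinusoidal ECs of the liver are a known source of factor VIII and normally hold little Vwf, which is better known from large vessels.

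Each sample had between 23001556 and 31651817 counts, and levels are given as CPM (the count of a gene relative to its library size) after scaling with TMM factors of 0.963 to 1.11. A gene at 3 counts stood at 0.0948 to 0.130 CPM, a floor that covers counting error only. The EC markers Pecam1 and Cdh5 were abundant in every sample, with a CPM of 1366 to 1635 and of 241 to 469. CD45, the leukocyte protein gated against, is the product of Ptprc, which had a CPM of 1.17 to 1.70 in the young samples and of 7.57, 1.28 and 25.6 at 127, 131 and 136 weeks. Lars2 and Rn45s, which collect ribosomal RNA reads, took 0.960% and 1.29% of counts in the 127-week sample and young sample 3 and 4.68% to 5.53% in the other 4 samples, so differences are also given within these library clusters, of which the one with few such counts holds 1 sample per age.

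Of the 9 genes, 3 were higher in every aged sample than in any young one (Plat, F3 and Procr), 3 were lower (Tfpi, F8 and Pros1), and the ages overlapped for the other 3 (Vwf, Thbd and Plau). Among all genes tested, 9.62% had all aged values above and 8.33% all aged values below the young values. The same 6 genes had an unadjusted p below 0.05 in the quasi-likelihood test of edgeR, 3 in each direction, where 8.32% of all genes had such a p and were higher and 4.32% were lower. At an adjusted p below 0.05, edgeR called 0 of the 9 genes and 0% of all genes (0 of 14612, with 1847 at an unadjusted p below 0.05). DESeq2's Wald test called 2 of the 9 higher (Plat and Procr) and 2 lower (Tfpi and Pros1), where it called 3.37% of 14262 genes higher and 1.05% lower. The log2 fold changes of aged against young ran from -0.98 for Tfpi to 1.93 for F3, with a median of 0.046, next to a median of 0.0098 over all genes. So 5 of the 9 genes were higher and 4 lower, and among all genes 51.1% were higher.

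**Figure D1:**
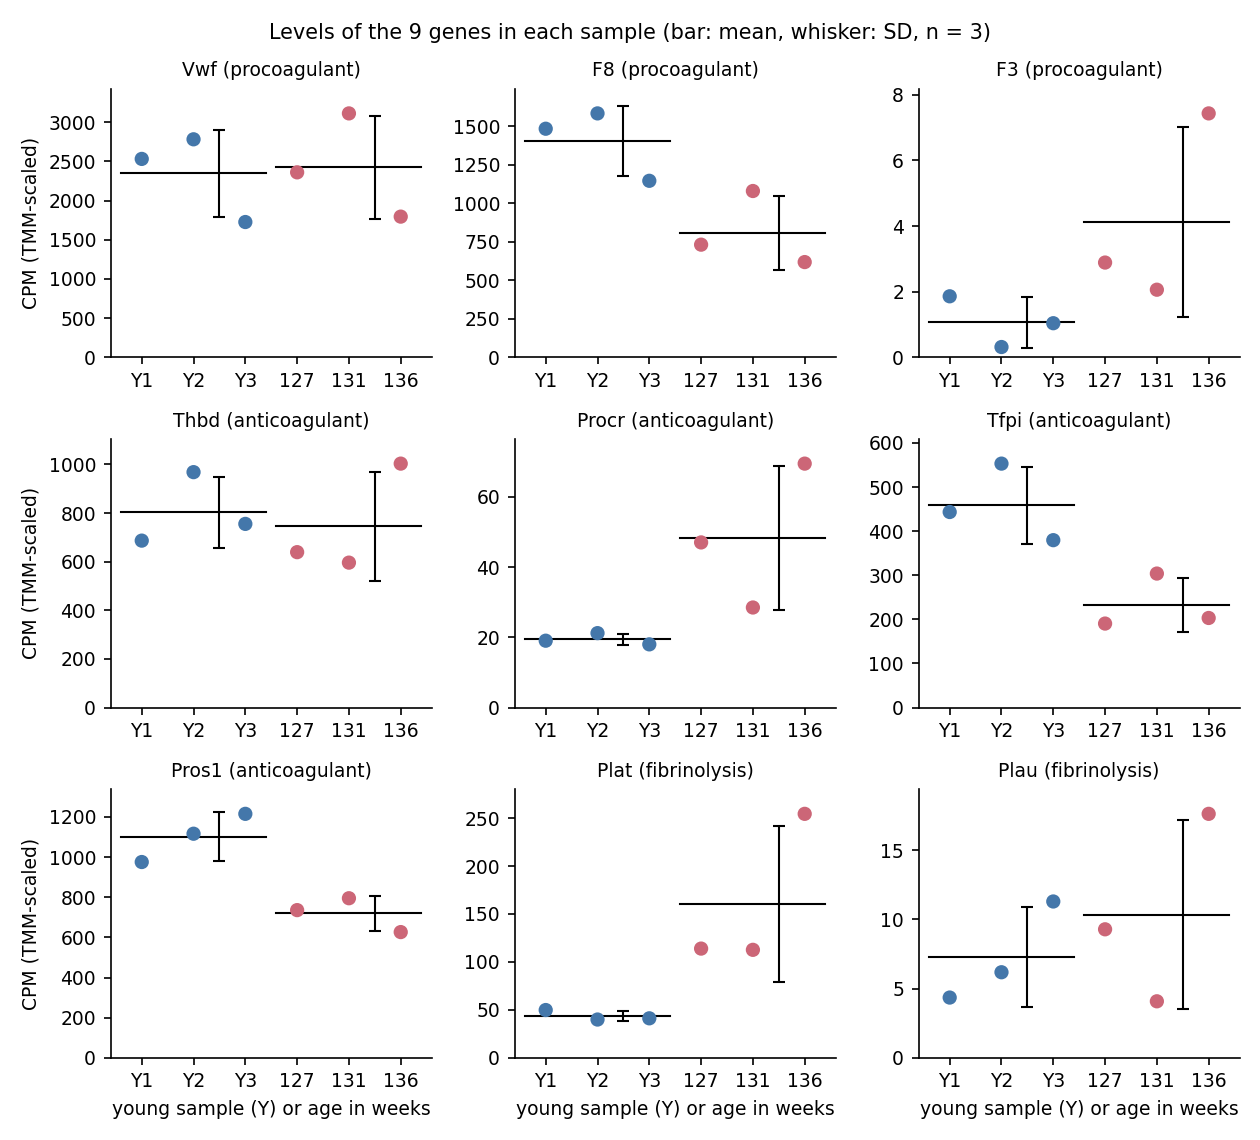
Level of each gene in CPM (vertical axis, from 0) in the 3 young samples (Y1 to Y3, blue) and in the aged samples named by age in weeks (red), with the mean as a bar and the SD as a whisker. The aged points lie apart from the young points for F8, F3, Procr, Tfpi, Pros1 and Plat, and within the young range or across it for Vwf, Thbd and Plau.

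**Figure D2:**
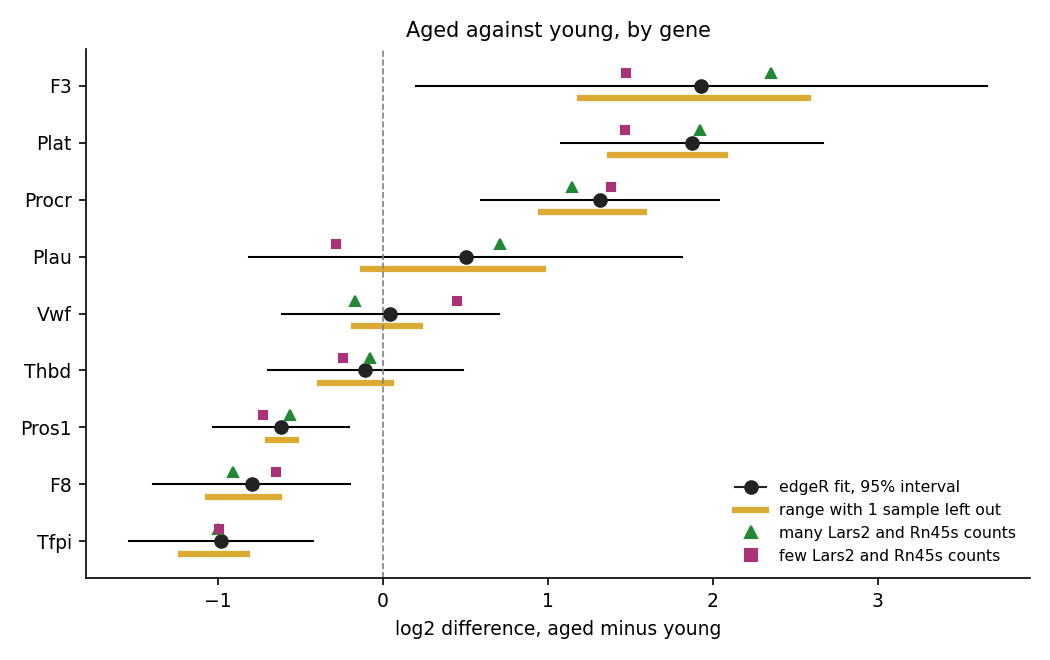
Difference of aged minus young on a log2 scale for each gene, as the edgeR log2 fold change with its 95% interval (black), the range of that value with 1 sample left out in turn (yellow), and the difference in mean log2 CPM within the libraries with many (triangle) or few (square) Lars2 and Rn45s counts. The 6 genes whose ages do not overlap keep their side of 0 in all of these, from F3 at 1.93 to Tfpi at -0.98, and Vwf, Thbd and Plau lie across 0.

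RefSeq promoter windows were at hand for 5 of the 9 genes, Tfpi, Procr, F3, Pros1 and F8. The 4 shown here belong to a pair that was higher (F3 and Procr) and a pair that was lower (Tfpi and Pros1) in aged ECs, and each was matched to a single place in mm9. Bases within an annotated exon are left out, which is why the Procr and Tfpi runs are shorter and why none is shown for F8. Capitals mark matches, on either strand, to CACCC (bound by Krüppel-like factors), TGANTCA (AP-1), TTCNNNGAA (STAT factors) or TATAAA (the box of that name).

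F3, chr3:121426205-121426454, + strand, 250 bases: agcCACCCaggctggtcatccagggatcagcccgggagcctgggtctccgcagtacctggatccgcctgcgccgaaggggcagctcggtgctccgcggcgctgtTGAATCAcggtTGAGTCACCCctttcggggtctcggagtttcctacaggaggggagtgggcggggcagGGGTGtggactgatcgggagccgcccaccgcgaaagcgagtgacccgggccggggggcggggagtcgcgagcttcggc

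Procr, chr2:155576703-155576852, + strand, 150 bases: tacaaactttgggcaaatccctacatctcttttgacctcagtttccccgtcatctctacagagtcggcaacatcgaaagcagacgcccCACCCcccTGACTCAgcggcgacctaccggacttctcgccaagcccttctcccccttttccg

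Tfpi, chr2:84316933-84317166, - strand, 234 bases: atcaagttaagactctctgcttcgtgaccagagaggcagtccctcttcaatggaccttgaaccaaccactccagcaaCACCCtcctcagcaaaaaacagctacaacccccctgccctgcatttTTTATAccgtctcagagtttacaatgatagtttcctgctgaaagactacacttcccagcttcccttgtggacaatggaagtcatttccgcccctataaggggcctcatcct

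Pros1, chr16:62853883-62854132, + strand, 250 bases: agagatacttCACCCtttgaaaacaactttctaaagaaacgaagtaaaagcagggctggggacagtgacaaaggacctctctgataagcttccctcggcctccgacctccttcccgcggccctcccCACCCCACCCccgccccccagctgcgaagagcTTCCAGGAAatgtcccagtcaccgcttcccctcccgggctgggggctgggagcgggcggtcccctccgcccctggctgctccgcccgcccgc

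The whole window of 250 bases before the start of F3 held 2 matches to TGANTCA and that of Procr held 1, and the windows of Tfpi, Pros1 and F8 held none. Of all 32851 promoter windows of this length, 6.75% held this motif. CACCC was found 3 times each before F3 and Pros1 and once before Procr and in each Tfpi window, against 52.0% of all windows with a match, and 1 of the F3 matches shares bases with TGANTCA. A match to TTCNNNGAA lay before Pros1 (7.02% of all windows) and one to TATAAA in the upstream one of 2 Tfpi windows (12.4% of all windows). For NF-kB, a single strict pattern was searched for, which was in none of these windows and in 1.41% of all. Sites that differ from that pattern were not searched for, so its absence does not show that these windows lack NF-kB sites. A match says only that these letters occur there.

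Vwf (chromosome 6, 125496792 to 125636697 of mm9, + strand) was the most abundant of the 9 genes in CPM. Its CPM was 2531, 2781 and 1726 in young samples 1, 2 and 3 and 2359.6, 3111 and 1795 at 127, 131 and 136 weeks. The lowest young and the highest aged sample bounded all others, and the ages overlapped. The means were 2346 ± 551 and 2422 ± 660.4 (SD, n = 3 each). In edgeR the log2 fold change was 0.046 (standard error 0.28, edgeR adjusted p = 0.972). Its 95% interval ran from -0.61 to 0.70, so changes within that range, in either direction, were not excluded by these samples. Within the library clusters the log2 difference was -0.17 where Lars2 and Rn45s counts were many and 0.45 where they were few.

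F8 (chromosome X, 72418054 to 72627954, - strand) encodes the factor VIII that Vwf carries in plasma. Its CPM was 1485, 1585 and 1147 in the young samples and 732, 1081 and 619 at 127, 131 and 136 weeks. The 131-week sample came close to young sample 3, the lowest of the young, and the ages did not overlap. The means were 1406 ± 229 and 811 ± 241 (SD, n = 3 each). The log2 fold change was -0.79 (standard error 0.26, edgeR adjusted p = 0.308). The aged mean was 57.7% of the young mean, and the unadjusted edgeR p of 0.0161 became 0.0582 without young sample 2 and 0.0531 without the 127-week sample. Where Lars2 and Rn45s counts were many the log2 difference was -0.91, and where they were few it was -0.65.

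F3 (chromosome 3, 121426455 to 121437970, + strand) encodes tissue factor, which most resting ECs keep low, and it was the least abundant gene of the 9. Its CPM was 1.86, 0.316 and 1.04 in the young samples, from 50, 7 and 33 counts. In the aged samples it was 2.89, 2.06 and 7.43, from 84, 53 and 183 counts at 127, 131 and 136 weeks. Every aged value lay above every young value, though the 131-week sample exceeded young sample 1 by little, and 2 of the 3 young samples reached the CPM of 0.5 that the filter asked of a single sample. The means were 1.07 ± 0.773 and 4.13 ± 2.89 (SD, n = 3 each). On the log2 scale the fold change was 1.93 (standard error 0.74, edgeR adjusted p = 0.361). The log2 fold change was 1.20 without the 136-week sample, 1.51 without young sample 2, 2.57 without young sample 1 and 0.996 with limma on log2(FPKM + 1). The unadjusted edgeR p of 0.0332 became 0.0723, 0.0798 and 0.143 without young sample 2, young sample 3 and the 136-week sample, and 0.0528 with a term for the library cluster.

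Tfpi (chromosome 2, 84273012 to 84316932, - strand) encodes the inhibitor of the complex of tissue factor and factor VIIa. Its CPM was 443, 553 and 379.6 in the young samples and 191, 304 and 203 at 127, 131 and 136 weeks. The 131-week sample was again the one nearest to the young samples. The means were 459 ± 87.8 and 233 ± 62.1 (SD, n = 3 each). In edgeR the log2 fold change was -0.98 (standard error 0.24, edgeR adjusted p = 0.235). The aged mean was 50.7% of the young mean, and the log2 difference was -0.99 within either library cluster. DESeq2 gave an adjusted p of 0.00876, and over all alternatives run it lay between that and 0.625.

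Thbd (chromosome 2, 148230207 to 148233924, - strand) is a gene of 1 exon for thrombomodulin, the thrombin receptor that turns thrombin towards protein C. Its CPM was 687, 968 and 756 in the young samples and 639, 596 and 1003 at 127, 131 and 136 weeks, so that the highest and the lowest of the 6 values were both aged. The means were 804 ± 147 and 746 ± 224 (SD, n = 3 each). The log2 fold change was -0.11 (standard error 0.25, edgeR adjusted p = 0.918). The 95% interval ran from -0.70 to 0.48.

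Procr (chromosome 2, 155576853 to 155581207, + strand) encodes the receptor that presents protein C to thrombomodulin. Its CPM lay close together at 19.1, 21.2 and 18.0 in the young samples and was 47.0, 28.5 and 69.5 at 127, 131 and 136 weeks. All aged samples were above the young ones, and they were spread more widely, with an SD of 20.5 against 1.63. On the log2 scale the fold change was 1.32 (standard error 0.31, edgeR adjusted p = 0.235), which is 2.49-fold, and the log2 difference was 1.15 where Lars2 and Rn45s counts were many and 1.39 where they were few. The adjusted p of DESeq2 was 0.00711, the lowest of the alternatives, over which it reached 0.625.

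Pros1 (chromosome 16, 62854133 to 62929172, + strand) encodes protein S, the cofactor of activated protein C, which hepatocytes make as well. Its CPM was 975, 1116 and 1216 in the young samples and 736, 795 and 626 at 127, 131 and 136 weeks. The spread was small at both ages, with an SD of 10.9% of the mean in young and 11.9% in aged ECs. The means were 1102 ± 121 and 719 ± 85.6 (SD, n = 3 each). In edgeR the log2 fold change was -0.62 (standard error 0.18, edgeR adjusted p = 0.263). DESeq2 gave an adjusted p of 0.0137, and over the alternatives it reached 0.649. The hepatocyte gene Alb had a CPM of 40.3 to 74.7 in young and 36.6 to 45.7 in aged ECs, and the part of hepatocyte RNA in the Pros1 level was not tested.

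Plat (chromosome 8, 23868216 to 23893319, + strand) encodes tissue-type plasminogen activator, the main plasminogen activator that ECs release into blood. Its CPM was 49.8, 39.9 and 41.2 in the young samples and 114, 113 and 254 at 127, 131 and 136 weeks. The 136-week sample stood well above the other aged samples, which in turn lay well above every young sample. The means were 43.7 ± 5.39 and 160.3 ± 81.5 (SD, n = 3 each). The log2 fold change was 1.88 (standard error 0.34, edgeR adjusted p = 0.193). By its unadjusted p, Plat ranked 52 of 14612 genes. Without the 136-week sample the log2 fold change was 1.38, and within the library clusters the log2 difference was 1.92 and 1.47. Its adjusted p was 3.56e-05 with DESeq2 and up to 0.625 over the alternatives.

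Plau (chromosome 14, 21655884 to 21662610, + strand) encodes urokinase, which acts mostly at cell surfaces through its receptor. Its CPM was 4.35, 6.18 and 11.3 in the young samples and 9.29, 4.08 and 17.6 at 127, 131 and 136 weeks, with the highest and the lowest value both aged. On the log2 scale the fold change was 0.50 (standard error 0.56, edgeR adjusted p = 0.776), with a 95% interval from -0.81 to 1.81. It was -0.12 without the 136-week sample.

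Among the 6 genes whose ages did not overlap, the 131-week sample was the aged sample nearest to the young mean for 6, and the 136-week sample the farthest for 5. Tfpi, farthest at 127 weeks, was the exception. The log2 CPM at 131 weeks differed from the young mean by -0.37 for F8, -0.58 for Tfpi, -0.47 for Pros1, 0.56 for Procr, 1.28 for F3 and 1.37 for Plat. Over the 6 samples, the log2(CPM + 1) values of genes on the same side correlated with a Pearson r of 0.836 to 0.969 in 6 pairs, and those on opposite sides with an r of -0.970 to -0.849 in 9 pairs. These values describe 6 samples in 2 age groups and hold the age difference itself. In the 21 pairs with Vwf, Thbd or Plau, r ran from -0.882 (Vwf with Plau) to 0.618 (Procr with Plau).

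Levels can be compared between genes on the FPKM scale, which is per kilobase of transcript. In young ECs the order of the mean FPKM was Pros1 (349 ± 41.9), Vwf (263 ± 59.4), Thbd (222 ± 39.6), Tfpi (202 ± 37.4), F8 (187 ± 28.5), Plat (18.0 ± 2.17), Procr (14.2 ± 1.14), Plau (3.24 ± 1.65) and F3 (0.612 ± 0.447; SD, n = 3 each). The ranges of neighbours overlapped from Pros1 down to F8 and did not from F8 to F3. In aged ECs Vwf came first (270.4 ± 73.3), followed by Pros1 (226 ± 27.2), Thbd (205 ± 60.5), F8 (107 ± 31.5), Tfpi (102 ± 24.3), Plat (65.3 ± 33.0), Procr (35.0 ± 15.0), Plau (4.61 ± 3.07) and F3 (2.37 ± 1.65; SD, n = 3 each). Here only Thbd and F8, and Procr and Plau, were neighbours whose ranges did not overlap. Plat made up 1.16% to 1.70% of the summed FPKM of the 9 genes in young and 4.16% to 10.3% in aged samples.

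**Figure D3:**
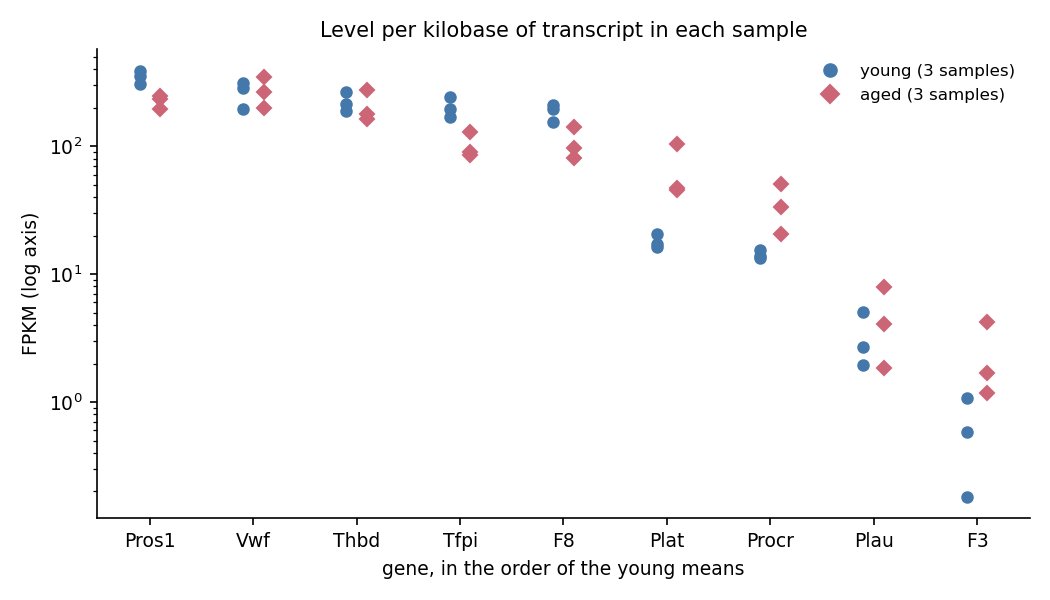
FPKM of each gene in each sample on a log axis, with genes in the order of the young means, young samples as circles and aged samples as diamonds. A wide gap separates F8 from Plat in young ECs (187 against 18.0 FPKM), and in aged ECs the highest Plat value (103 FPKM) lies within the range of F8 and Tfpi.

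Pairs of genes that act on each other were compared as log2 ratios of FPKM in each sample. For F8 over its carrier Vwf the ratio was 0.694, 0.674 and 0.787 in the young samples and 0.367, 0.411 and 0.408 at 127, 131 and 136 weeks. This ratio varied little within an age, and it was lower in 3 of 3 aged samples by a log2 difference of -0.86. The ratio of Thbd to Procr was 13.5, 17.1 and 15.9 in the young and 5.28, 7.86 and 5.41 in the aged samples, a log2 difference of -1.35. For F3 over its inhibitor Tfpi the log2 ratio was -7.50, -10.4 and -8.19 in the young samples and -5.67, -6.77 and -4.40 at 127, 131 and 136 weeks, a difference of 3.07. Tfpi thus stayed far more abundant than F3 in all samples. For Plau over its receptor Plaur the difference was -1.18, from ratios of 0.0869 to 0.156 in young and 0.0365 to 0.0638 in aged samples. The ages did not overlap in any of these 4 ratios, so each had the lowest p possible for groups of 3 (exact permutation, two-sided, p = 0.1, adjusted p = 0.125 over 5 ratios computed). For F3/Tfpi this was fixed beforehand, since F3 was higher and Tfpi lower in every aged sample. F8, Procr and Plaur also did not overlap by themselves, so the other ratios partly restate these genes. The share of other gene pairs without overlap was not computed.

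**Figure D4:**
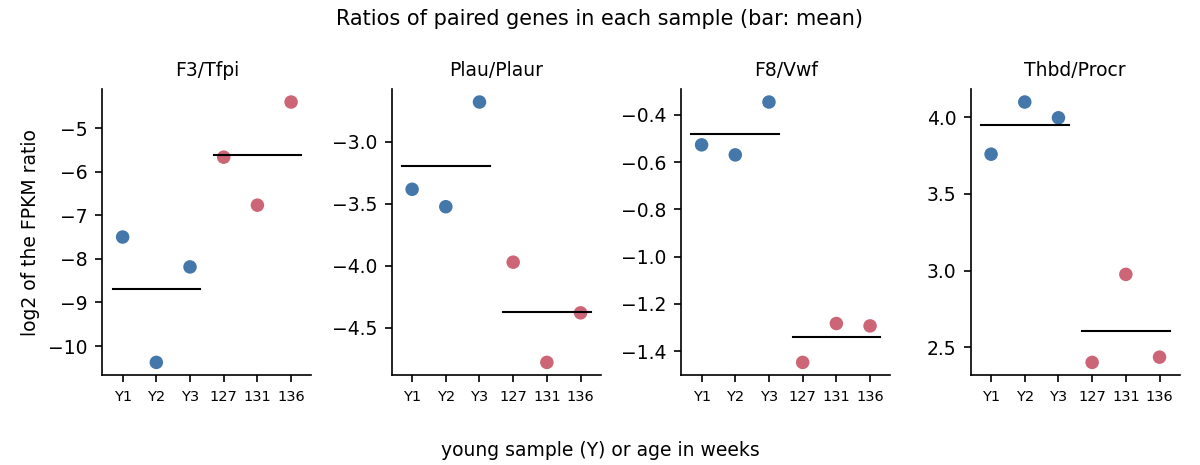
Log2 of the FPKM ratio of 4 gene pairs (vertical axis, a separate scale for each pair) in the young (Y1 to Y3, blue) and aged (age in weeks, red) samples, with group means as bars. The ages lie apart in each panel, with the aged samples above the young for F3/Tfpi and below them for Plau/Plaur, F8/Vwf and Thbd/Procr.

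The partners of these genes were taken from fixed lists, of which no gene passed an adjusted p of 0.05 in edgeR. Of 7 genes around plasminogen activation, 5 were higher at the older age and 2 lower (median log2 fold change 0.22), and 2 higher genes had an unadjusted p below 0.05. These were Plaur, the urokinase receptor, with a CPM of 26.2, 39.9 and 42.3 in the young and 85.7, 66.7 and 214 in the aged samples (log2 fold change 1.76, edgeR adjusted p = 0.245), and Serpine2. Serpine2, an inhibitor of serine proteases, overlapped between the ages at 14.4 to 39.8 and 31.4 to 149.9 CPM. Anxa2 and S100a10, which dock plasminogen at the cell surface, had log2 fold changes of 0.22 and -0.081.

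Of 8 tested genes of the protein C and vitamin K systems, 2 were higher and 6 lower (median log2 fold change -0.22). Ggcx and Vkorc1, the carboxylase of proteins such as protein S and the enzyme that recycles its cofactor vitamin K, were both lower in every aged sample than in any young one. Ggcx had a CPM of 105 to 118 in young and 78.5 to 83.5 in aged ECs (log2 fold change -0.46, edgeR adjusted p = 0.256), and Vkorc1 one of 56.3 to 61.0 and 44.8 to 52.0. Klf2 and Klf4, shear-responsive regulators known to act on Thbd, overlapped between the ages, with log2 fold changes of -0.46 and 0.41. Of the protein S receptors, Mertk had a log2 fold change of -0.91 and Tyro3 one of -0.18, neither with an unadjusted p below 0.05. In the family of the thrombin receptor F2r, 4 genes were tested, not all of them receptors of thrombin. F2r led at 932 to 1198 CPM in young and 746 to 1113 in aged ECs (log2 fold change -0.29). By fold change 3 of the 4 were lower and F2rl1 was higher (0.40), and none had an unadjusted p below 0.05.

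Among 14 genes that store, release, process or clear Vwf and F8, 5 were higher and 9 lower (median log2 fold change -0.19). Selp and Cd63, which share the storage granule with Vwf, were higher in every aged sample than in any young one, Selp at 285 to 336 CPM in young and 771 to 837 in aged ECs (log2 fold change 1.37, edgeR adjusted p = 0.0861) and Cd63 at 46.4 to 88.8 and 108 to 252. Rab27a, a GTPase of that granule, was lower in each aged sample (69.5 to 94.8 and 30.5 to 62.5 CPM). Stab1 and Stab2, scavenger receptors that take up Vwf with F8, were lower in each aged sample, with log2 fold changes of -0.73 and -1.70. Lman1, which with Mcfd2 carries F8 out of the endoplasmic reticulum, stood at 184 to 187 CPM in young and 138 to 171 in aged ECs, and Mcfd2 overlapped between the ages. Adamts13, the protease that trims Vwf, had a log2 fold change of -0.21. Of 9 heparan sulfate and other inhibitor genes, 6 were higher and 3 lower, with a median of 0.10, and Sdc4 alone had an unadjusted p below 0.05 (29.5 to 43.4 CPM in young, 47.1 to 92.6 in aged ECs, log2 fold change 0.89).

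**Figure D5:**
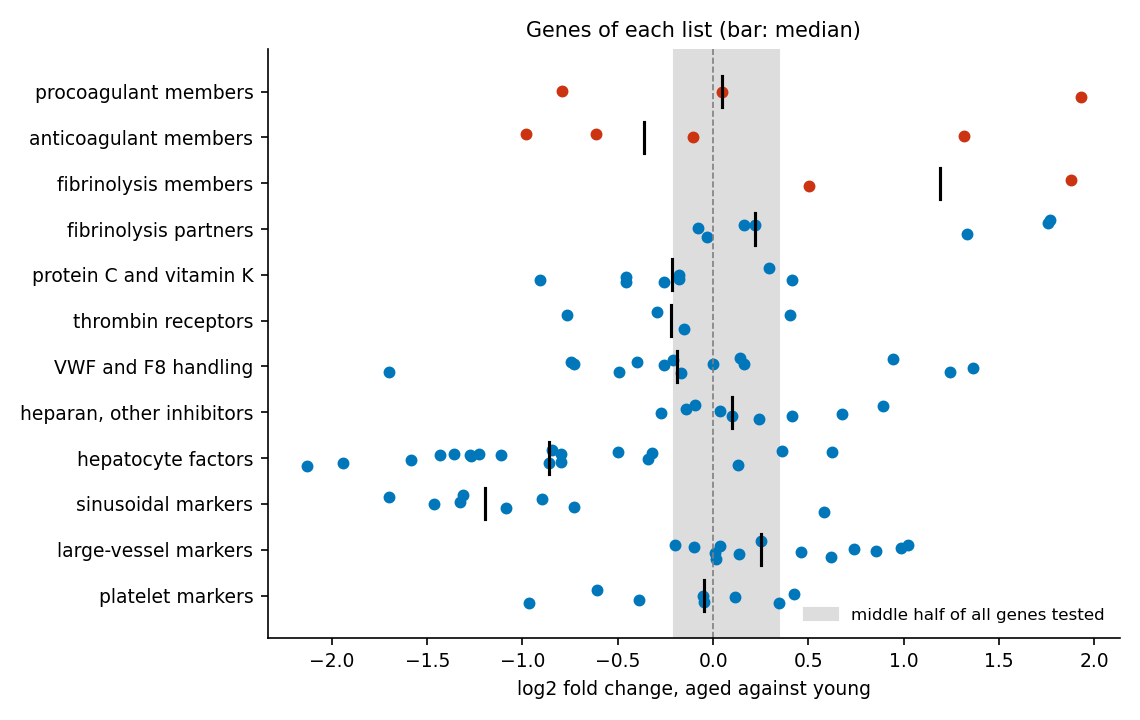
Log2 fold change of aged against young for each tested gene of the 9 (red, by role) and of the other lists (blue), with the median of each list as a bar and the range from the lower to the upper quartile of all genes tested, -0.20 to 0.35, in grey. Procoagulant and anticoagulant genes lie on both sides of 0, the genes around plasminogen activation mostly above it, and the hepatocyte factors and the sinusoidal markers mostly below it.

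Markers of cell types differed between the ages as well. Of 8 sinusoidal EC markers, 7 were lower in every aged sample than in any young one (median log2 fold change -1.20), while Lyve1 overlapped. Their summed CPM was 16540 to 18440 in the young samples and 6743, 11200 and 6232 at 127, 131 and 136 weeks. The 131-week sample was thus nearest to the young in this sum, as it was in the sums of the pan-endothelial and leukocyte markers below. In the sum of the inflammation genes below, the 127-week sample was nearest (9047 CPM, against 9495 at 131 weeks). Of 13 markers of large vessels, 11 were higher and 2 lower (Ephb4 at -0.20 and Cdh13 at -0.099), with a median of 0.25. All aged values lay above all young values for 5 of the 13. The summed CPM of the 13 overlapped between the ages, at 4099 to 5301 in young and 5232 to 5287 in aged ECs. Cd200, Clu and Sox17 had an unadjusted p below 0.05, with log2 fold changes of 1.03, 0.62 and 0.46, while Cd9, Rspo3, Gja5 and Efnb2 lay between 0.012 and 0.14. Of 9 pan-endothelial markers, 3 were higher and 6 lower (median -0.18), and their sum was lower in every aged sample, at 7590 to 9844 CPM against 10400 to 11900 in young ECs. All 11 tested leukocyte markers were higher by fold change, and their sum was 33.9 to 65.6 CPM in young ECs and 173, 28.1 and 482 at 127, 131 and 136 weeks. All 10 inflammation genes, such as Sele, Vcam1 and Irf1, had an unadjusted p below 0.05 and higher values in each aged sample. Among all genes tested, 8.32% had such a p and were higher, and 9.62% had all aged values above the young. Some of the 10, such as Sele and Irf1, had been reported by the authors as higher in aged liver ECs. The count was thus partly fixed beforehand. The sum of the 10 genes was 4165 to 5255 CPM in young and 9047 to 14960 in aged ECs. Of 10 early response genes of cell dissociation, 9 were higher and 1 lower (median 0.55). In edgeR, 6 of the 10 were higher with an unadjusted p below 0.05. All aged values lay above all young values for 6 of the 10 and below them for 1, Dusp1. Among all genes tested, 8.33% had all aged values below the young. The part of these markers in the levels of the 9 genes was not tested.

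Of 19 tested clotting factor genes of hepatocytes, 3 were higher and 16 lower (median log2 fold change -0.86), and of 9 hepatocyte markers 1 was higher and 8 lower (median -0.76). The summed CPM of the clotting factors was 57.8 to 123 in young and 38.9 to 54.7 in aged ECs. Of the 8 tested platelet markers, 3 were higher and 5 lower with a median of -0.049, none had an unadjusted p below 0.05, and their summed CPM was 138 to 242 in young and 66.0 to 153 in aged ECs. Most of that sum was Clec1b, at 37.7 to 208 CPM, while Ppbp and Pf4 had a CPM of 1.22 to 5.37 and 3.16 to 9.46. Platelets also hold Vwf, and their part in its level was not tested. Markers of stellate and mural cells (6 higher, 4 lower, median 0.072) and of bile duct cells (5 higher, 0 lower, median 0.79) were present as well, with a summed CPM of 145 to 413 and 88.1 to 105 in young and of 240.0 to 699 and 189 to 237 in aged ECs.

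For each of the 9 genes, the genes with the most similar pattern of log2(CPM + 1) over the 6 samples were sought among 8906 genes with a mean CPM of at least 10. They were Entpd1 for Vwf (Pearson r = 0.991), Slc44a2 for F8 (0.997), Smyd5 for F3 (0.979), Rprd2 for Thbd (0.981), Kif26a for Procr (0.996), Lysmd4 for Tfpi (0.993), Zdhhc24 for Pros1 (0.991), Slc1a5 for Plat (0.996) and Parp9 for Plau (0.992). The second in order were Fam132a for Vwf (0.987), Hs3st3b1 for F8 (0.995), G530011O06Rik for F3 (0.979), Serinc5 for Thbd (0.972), Sp110 for Procr (0.994), Bcl2l13 for Tfpi (0.993), Cdk10 for Pros1 (0.991), Rbbp7 for Plat (0.995) and Hmgb2 for Plau (0.984). With 6 points and so many candidates, these values describe likeness of pattern only. Entpd1 encodes an ectonucleotidase that limits platelet activation and had a log2 fold change of 0.034, close to that of Vwf.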

How the data were processed

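RNA from sorted CD31+CD45- liver ECs was sequenced by the authors as 75-base single-end reads. Per the submitters' processing notes, reads were processed with CASAVA 1.8.2 and mapped to mm9 with TopHat2 2.1.0. The deposited counts are whole-number read counts per gene symbol, without normalization; the counting program, annotation and strand setting are not given in the sources used here. The deposited FPKM values were made by the authors with Cuffnorm 2.2.1.

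Genes reaching a CPM of 0.5 in any 1 sample were kept, normalized by TMM and compared with the quasi-likelihood test of edgeR 4.0.16 (R 4.3.3), with Benjamini-Hochberg adjustment over all genes tested. Standard errors are the log2 fold change divided by the root of the F statistic. The edgeR fit was tested on simulated counts of 3 young and 3 aged samples. At an adjusted p below 0.05 it called 18 of 67 genes given a 2-fold change and 47 of 67 given a 4-fold change. For a 16-fold change it called 65 of 66. DESeq2 1.42.0, and limma 3.58.1 on voom values or on log2(FPKM + 0.1) and log2(FPKM + 1) of genes reaching an FPKM of 0.1 in any sample, served as alternatives. Others used DESeq2 size factors, no filter or a filter on 3 samples, a term for the library cluster (a share of Lars2 and Rn45s above or below 3%), removal of both symbols, and removal of each sample. Ratios were compared by exact permutation (two-sided), which cannot give a p below 0.1 here. An item of the lists and of the ratios is not reported here, though its ratio stays in the adjustment.

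The 9 genes, the lists and the tests were chosen with earlier results of these data known. Named genes are the 9, up to 4 genes of a list with the smallest p, the genes of the ratios and the 2 most similar genes. Others of a list (such as Anxa2, S100a10, Klf2, Tyro3, Lman1, Mcfd2, Adamts13 and the markers) were named for their role after their values were seen. The edgeR p-values set the difference between the ages against the spread between these samples, which is estimated with help from all genes tested. No 2 samples of an age were alike within sampling noise (smallest chi-square per degree of freedom 20.2). Positions are from the GENCODE annotation of mm9, in which no exon of the 9 genes overlaps that of another gene. Promoter sequences are from RefSeq (GRCm38.p6) and were placed in mm9 by exact match.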

Additional observations from a re-analysis of the deposited data

How the results depend on the processing

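The 6 genes whose ages did not overlap kept their direction in all 90 of 90 values over 9 other settings and 6 removals of a sample each. The number of the 9 genes at an unadjusted p below 0.05 was 5 to 6 over the other settings and 4 to 6 with a sample left out, lowest without young sample 2. With a sample left out, 6 to 7 of the 9 genes did not overlap. Smaller groups separate more readily without any difference between them. The shares of all genes at an unadjusted p below 0.05 or without overlap were not computed for these settings and removals. At an adjusted p below 0.05, 4 of the 9 genes were called by DESeq2's Wald test and 0 under every other setting, with 0 to 0 when a sample was left out. Over all genes the number called higher and lower was 480 and 150 with DESeq2, 13 and 2 with limma-voom, 3 and 1 without a filter, 1 and 1 with limma on log2(FPKM + 0.1), 1 and 1 with a term for the library cluster, and 0 to 1 higher and 0 lower with a sample left out. The cause was not tested.

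Vwf, Thbd and Plau had no stable direction. Vwf had a log2 fold change of -0.11 with limma-voom and between -0.18 (without the 131-week sample) and 0.22 (without the 136-week sample), and it was -0.13 without young sample 3. Thbd ranged from -0.38 to 0.050, above 0 without young sample 2 or the 131-week sample (0.032), and Plau from -0.12 (without the 136-week sample) to 0.97. The 4 ratios kept their direction, with a sample left out from 2.23 to 3.67 for F3/Tfpi, -1.38 to -0.92 for Plau/Plaur, -0.91 to -0.79 for F8/Vwf and -1.53 to -1.24 for Thbd/Procr. Young and aged samples come from different mice with nothing that pairs them, so no paired analysis was made. The 7 to 183 counts of F3 per sample limit its precision.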
